A study of Homo sapiens with 2 samples.

Results

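The miR-17, miR-18 and miR-19 families are groups of microRNAs (miRNAs) cut from polycistronic transcripts. The members treated here lie on 2 of these, and miR-19b-3p has a further copy on the X chromosome. The MIR17HG transcript carries the hairpins from miR-17 to miR-92a, and an intron of MCM7 those from miR-106b to miR-25. The 9 members were taken by exact match to a written list of names, with no filter on their values. All were found among the 1213 entries of the authors' table. The list was chosen with earlier results of these data known, and it leaves out some other products of the same hairpins. Small RNA sequencing covered UM-SCC6, a human line of oral squamous cell carcinoma, as the parental culture and as UM-SCC6-M. The latter was grown on from the invading cells of a microfluidic chip after 3 rounds of such selection. Both are 1 cell line, no added agent is named, and the labels call UM-SCC6-M strongly invasive with some mesenchymal features. There was 1 library of each, so differences stand without replicates and the conditions were not tested against each other.

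miRNAs guide Argonaute proteins to messenger RNAs by pairing of the seed, bases 2 to 8 of the mature strand, and lower the output of those messengers. The MIR17HG transcript is switched on by MYC and its locus is amplified in some lymphomas and carcinomas, hence its early name oncomiR-1. The paralogous cluster lies inside MCM7, a gene for a subunit of the replicative DNA helicase that E2F factors switch on in proliferating cells. Known targets of the miR-17 seed include CDKN1A, E2F1 and TGFBR2, and those of the miR-18 seed include the matrix gene CCN2.

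The mature sequences show how the members divide by seed, and are printed 5′ to 3′ with the seed in capitals. All 9 names matched the RefSeq table of GRCh38.p14 and carried 5 distinct seeds.
miR-17-5p: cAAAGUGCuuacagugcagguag
miR-20a-5p: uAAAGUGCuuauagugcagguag
miR-93-5p: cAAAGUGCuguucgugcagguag
miR-106b-5p: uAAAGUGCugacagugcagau
miR-18a-5p: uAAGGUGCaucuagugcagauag
miR-19a-3p: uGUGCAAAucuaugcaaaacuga
miR-19b-3p: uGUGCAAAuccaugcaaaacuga
miR-17-3p: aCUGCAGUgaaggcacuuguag
miR-106b-3p: cCGCACUGuggguacuugcugc

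The first 4 share the seed AAAGUGC and form the miR-17 family. Their differences lie outside the seed, and positions here count from 1 at the 5′ end of the first named miRNA. From miR-17-5p to miR-20a-5p they are C1U and C12U, and to miR-106b-5p they are C1U, U10G and G20A over 21 compared positions. miR-93-5p differs from miR-17-5p at 4 adjacent positions, U10G, A11U, C12U and A13C. The seed of miR-18a-5p differs from that of miR-17-5p by A4G alone. miR-19a-3p and miR-19b-3p share the seed GUGCAAA and differ by U11C alone over 23 positions. miR-17-3p and miR-106b-3p are the opposite arms of the miR-17 and miR-106b hairpins, and no other name in the RefSeq table had the seed of either.

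The members of the MIR17HG transcript lie on the plus strand of chromosome 13 in GRCh38, from miR-17-5p at chr13:91350618-91350640 to miR-19b-3p at chr13:91351245-91351267. In GENCODE release 29 their 5 hairpins overlap an exon in 2 of the 3 MIR17HG transcripts and lie in an intron of the other one. miR-19b-3p has an identical copy at chrX:134169683-134169705 on the minus strand, in the paralogous transcript that runs from miR-106a to miR-363, so its reads cannot be assigned to 1 locus. miR-106b-5p lies at chr7:100094043-100094063 and miR-93-5p at chr7:100093815-100093837, both on the minus strand. The MIR106B and MIR93 hairpins are intronic in all 8 MCM7 transcripts that span them. These positions come from the annotation, and the genome build behind the authors' file is not stated in the labels.

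Of the 1213 entries, 1178 bear a miRNA name. The reads recovered from the table numbered 7699490 in UM-SCC6-M and 8182958 in the parental culture. Entries listed at 0 in both libraries add no reads to these totals, and reads in both libraries were known for 555 entries. Levels are normalized reads, the read signal as scaled by the authors, in which 1 read was worth 0.119 in UM-SCC6-M and 0.133 in the parental library. Values below 1 are listed as 0 in the table. Log2 ratios divide UM-SCC6-M by parental levels, and brackets give exact 95% intervals that cover counting error only. With 1 library of each culture, they do not cover the spread between cultures. They also treat each read as a separate draw, although PCR copies are not separate molecules. Of the epithelial and squamous markers, miR-200b-3p stood at 17481 normalized reads in UM-SCC6-M and 12823 in the parental library, and miR-31-5p at 93.9 and 98.5. miR-200c-3p had 15 and 20 reads and miR-203a-3p 23 and 7, while no entry analysed here bore the names miR-141-3p or miR-205-5p. The 4 stromal markers summed to 25.9 and 20.9 normalized reads, in which miR-143-3p (4.06 and 10.4) and miR-199a-3p (21.9 and 10.5) were each over 2-fold apart in opposite directions. The other stromal markers, miR-145-5p and miR-214-3p, had a listed value of 0 in each library. The blood markers summed to 17.9 and 24.6, and miR-486-5p alone made up these listed sums. Of the remaining blood markers, miR-451a and miR-142-3p also had a listed value of 0 in each library. No entry analysed here bore the name miR-223-3p. The endothelial marker miR-126-3p had 519.9 in UM-SCC6-M and 968.3 in the parental library. The labels name 1 carcinoma line and no other cell type. Whether any of these marker reads came from other cells was not tested.

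No member with at least 50 normalized reads in its higher library was 2-fold apart between the libraries. This held for 0 of 6 such members, where 20.1% of all 179 miRNAs at that floor were at least 2-fold apart. With so few members a count of 0 is not far from that share. The members ran from a log2 ratio of -0.55 for miR-106b-5p to 0.55 for miR-19b-3p, a range that holds 98 of the 179 miRNAs (54.7%). At the lower floor of 10 normalized reads 8 members qualified, 4 above 0 and 4 below. None of them was 2-fold apart, against 22.8% of 289 entries. Their median log2 ratio was 0.03, beside -0.07 over all 289. In bulk libraries such as these, fewer cells with a miRNA and less of it per cell cannot be told apart.

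**Figure D1:**
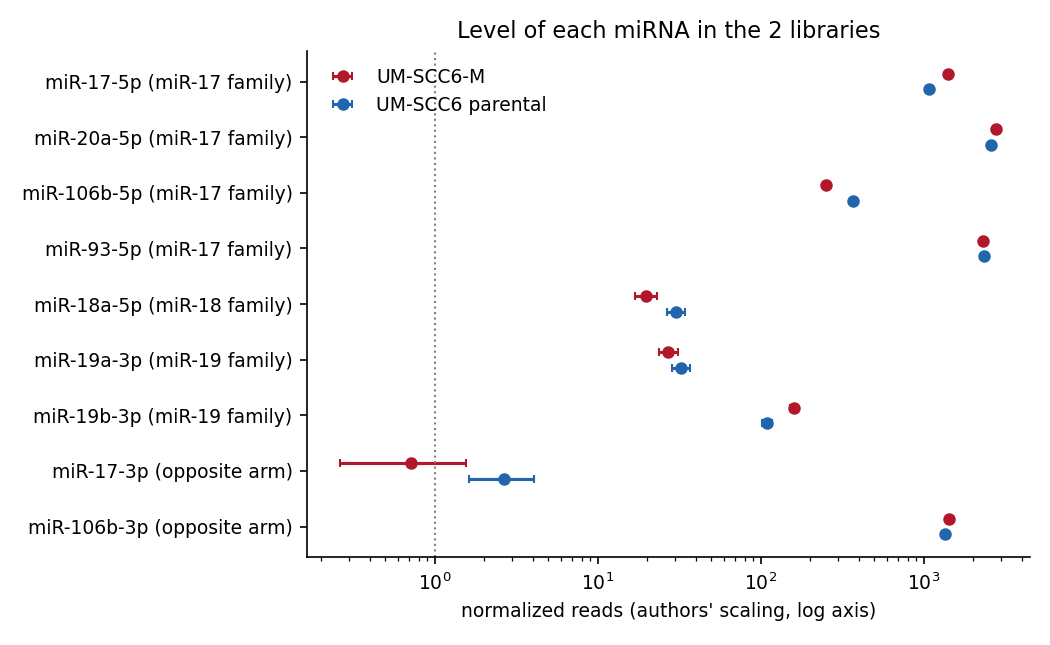
Normalized reads (log axis) of the 9 members in UM-SCC6-M (red) and parental UM-SCC6 (blue), with 95% Poisson intervals of the reads and a dotted line at 1, below which the table lists 0. miR-20a-5p is highest in both libraries, at 2781 and 2610, and miR-17-3p is lowest, at 0.716 and 2.66.

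The miR-17 family supplied most of the reads. Its 4 members together had 56694 reads in UM-SCC6-M, or 0.736% of the reads recovered there (0.730 to 0.742). The parental library had 48295, or 0.590% (0.585 to 0.595). On the scaled values the sum was 6770 against 6418 normalized reads, a log2 ratio of 0.08 (0.06 to 0.09). The family as a whole was thus nearly level under the authors' scaling. Scaling to total reads moves every log2 ratio up by 0.24 and put the sum at 0.32.

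Inside the family the members went different ways. miR-20a-5p, the most abundant, had 2781 normalized reads in UM-SCC6-M and 2610 in the parental library, a log2 ratio of 0.09 (0.06 to 0.12). It ranked 39 and 40 among all entries of the respective libraries. miR-93-5p, from the MCM7 intron, came second with 2331 and 2354, a ratio of -0.01 (-0.04 to 0.02) whose sign changes with the scaling. Under the authors' scaling these 2 leading members differed by at most 1.07-fold between the libraries.

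miR-17-5p, the founding member, stood at 1406 normalized reads in UM-SCC6-M and 1085 in the parental library. Its log2 ratio was 0.37 (0.33 to 0.41), the highest of the family, and 73.2% of the 179 miRNAs had a lower one. miR-106b-5p was the least abundant member and the only one of the family whose interval lay below 0, with 251.4 normalized reads in UM-SCC6-M against 368.0. Its ratio was -0.55 (-0.63 to -0.47), or 1.46-fold lower, and 25.7% of the 179 miRNAs lay below it. Among them the counting interval lies to one side of 0 for 92.7%, so an interval that leaves out 0 is common at this depth and says nothing of the spread between cultures.

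The balance among these seed-sharing members does not depend on how the libraries are scaled. There were 0.505 reads of miR-17-5p per read of miR-20a-5p in UM-SCC6-M and 0.416 in the parental library, although the same transcript carries both. That is a log2 difference of 0.28 (exact conditional interval 0.23 to 0.33). Between the paralogous transcripts, miR-17-5p had 5.59 reads for each read of miR-106b-5p in UM-SCC6-M and 2.95 in the parental library, a difference of 0.92 (0.83 to 1.02), the largest within a seed family here. miR-20a-5p against miR-93-5p gave the smallest, 0.11 (0.07 to 0.15). For all 7 compared pairs with a shared seed the counting interval left out 0. The same held for 30 of the 36 pairs that the 9 members allow. The share over pairs of all miRNAs is not given here. For single ratios the interval left out 0 in 92.7% of the 179 miRNAs, so these counts show no trait particular to the seed families. As shares of the family's reads, miR-17-5p made up 20.8% in UM-SCC6-M and 16.9% in the parental library, and miR-106b-5p 3.71% and 5.73%. miR-20a-5p held 41.1% and 40.7%, and miR-93-5p 34.4% and 36.7%.

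Other miRNAs with the same seed added almost nothing. Of 8 names with the seed AAAGUGC in the RefSeq table, 4 are members and 1 other had reads, miR-106a-5p of the X chromosome transcript, with 15 reads in UM-SCC6-M and 10 in the parental library. miR-106a-5p differs from miR-17-5p by C1A alone (positions counted on miR-17-5p), so single reads could be given to either name. The 4 members held at least 99.97% of the recovered reads with this seed in each library. The related embryonic miRNAs miR-302a-3p, miR-302b-3p and miR-302d-3p were listed at 0 in both libraries.

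**Figure D2:**
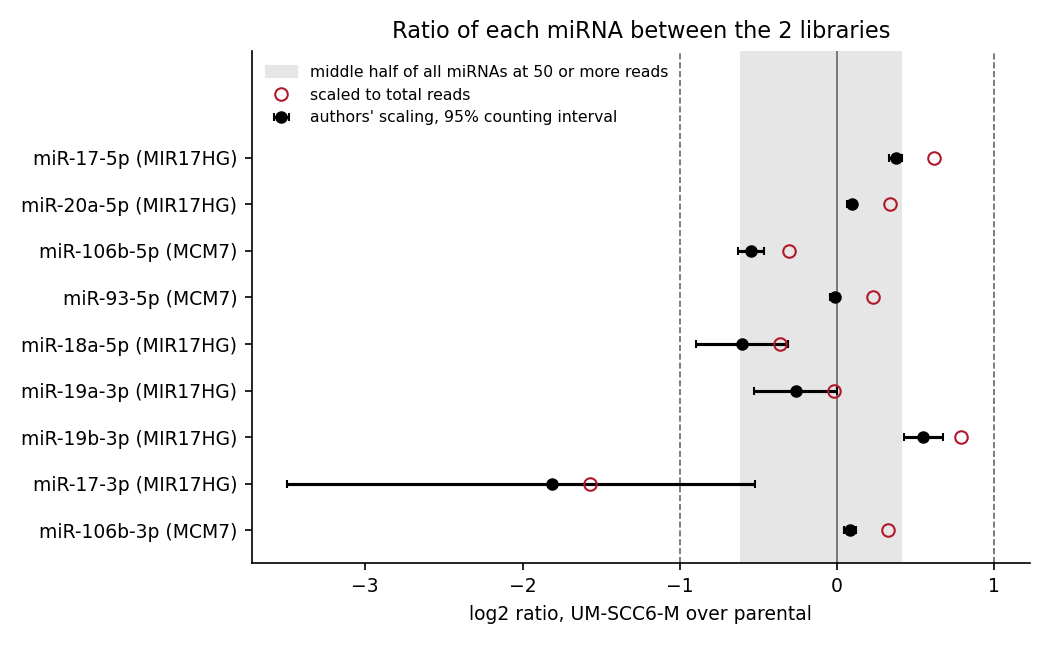
Log2 ratio of UM-SCC6-M over parental for each member under the authors' scaling (black, with 95% counting intervals) and scaled to total reads (open red circles); dashed lines mark 2-fold and the grey band runs between the quartiles of the 179 miRNAs at 50 or more normalized reads, -0.61 and 0.41. The 6 members at that floor lie between -0.55 and 0.55, and the total scaling shifts every point by 0.24.

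miR-18a-5p, the only member with the miR-18 seed, was scarce. It had 19.9 normalized reads in UM-SCC6-M (167 reads) and 30.3 in the parental library (228 reads). The log2 ratio was -0.60 (-0.90 to -0.31), or 1.52-fold lower, under the floor of 50 for the rule of size. Its paralog miR-18b-5p had no entry under that name among the entries analysed here.

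The miR-19 family, held to carry the main oncogenic activity of the MIR17HG cluster in B cell lymphoma models, split between its members. miR-19b-3p stood at 161.0 normalized reads in UM-SCC6-M and 110.0 in the parental library, a log2 ratio of 0.55 (0.42 to 0.68), or 1.46-fold higher. miR-19a-3p had 27.2 and 32.7, a ratio of -0.26 with an interval of -0.53 to 0.00. There were 5.91 reads of miR-19b-3p per read of miR-19a-3p in UM-SCC6-M and 3.37 in the parental library, a difference of 0.81 (0.52 to 1.11). The summed family had 1576 and 1074 reads and a log2 ratio of 0.40 (0.29 to 0.51), and miR-19b-3p supplied 1348 and 828 of those reads. With its second locus on the X chromosome and a sister that differs by 1 base, miR-19b-3p is also the member whose source the reads define least.

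Ordered by level in UM-SCC6-M, miR-20a-5p and miR-93-5p led, then miR-106b-3p at 1425 and miR-17-5p at 1406, whose counting intervals overlap (1400 to 1451 and 1381 to 1432). miR-106b-5p, miR-19b-3p, miR-19a-3p, miR-18a-5p and miR-17-3p followed. The order was the same in the parental library, where miR-106b-3p (1345) and miR-17-5p (1085) lay apart and miR-19a-3p (32.7, interval 28.7 to 37.0) and miR-18a-5p (30.3, 26.5 to 34.5) overlapped. Adapter ligation favours some miRNA ends over others, so the order within a library is one of reads and need not be that of molecules.

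The hairpins show where the opposite arms sit. MIR17 (chr13:91350605-91350688, plus strand) and MIR106B (chr7:100093993-100094074, minus strand) are printed 5′ to 3′ with both mature arms in capitals, the 5p arm first.
MIR17: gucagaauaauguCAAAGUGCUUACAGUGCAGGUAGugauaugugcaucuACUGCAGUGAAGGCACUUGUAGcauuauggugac
MIR106B: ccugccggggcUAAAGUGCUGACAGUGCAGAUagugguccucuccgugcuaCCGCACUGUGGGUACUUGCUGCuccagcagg

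Although the 5p arms of these paralogous hairpins share a seed, the hairpins gave reads from opposite sides. Nearly all MIR17 reads came from the 5p arm. miR-17-3p had 6 reads in UM-SCC6-M, where it is listed at 0 and the count follows from the authors' deposited fold change, and 20 in the parental library, or 0.716 and 2.66 normalized reads. Its log2 ratio was -1.81 (-3.50 to -0.52). This is the only member more than 2-fold apart at any floor, on counts so low that it enters no call. Without a floor 30.5% of the 555 entries with reads known in both libraries are 2-fold apart.

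MIR106B gave more reads from the 3p arm. miR-106b-3p had 1425 normalized reads in UM-SCC6-M and 1345 in the parental library, a log2 ratio of 0.08 (0.05 to 0.12), while miR-106b-5p was 1.46-fold lower. The 3p arm thus had 5.67 reads for each 5p read in UM-SCC6-M and 3.66 in the parental library. The log2 ratio of 5p to 3p differed by -0.63 (-0.72 to -0.54), a value that no scaling changes. Among the 30 hairpins with both arms at 50 or more normalized reads, differences of this size were ordinary. MIR106B ranked 18 by size, and the median size was 0.76.

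Other hairpins of both transcripts had a minor arm of few reads. For MIR18A the arms went opposite ways, miR-18a-5p from 228 parental to 167 UM-SCC6-M reads and miR-18a-3p from 30 to 53, an arm difference of -1.26 (-2.03 to -0.53). For MIR17 it was 2.19 (0.90 to 3.87), resting on the 6 and 20 reads of miR-17-3p. For MIR92A1 it was 0.78 (0.01 to 1.69), where miR-92a-3p can also come from the X chromosome hairpin. The intervals for MIR20A, MIR19B1, MIR93 and MIR25 held 0. The interval thus left out 0 for 4 of these 8 hairpins, most of them with a scarce arm, against 86.7% of the 30 hairpins with both arms at 50 or more normalized reads.

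**Figure D3:**
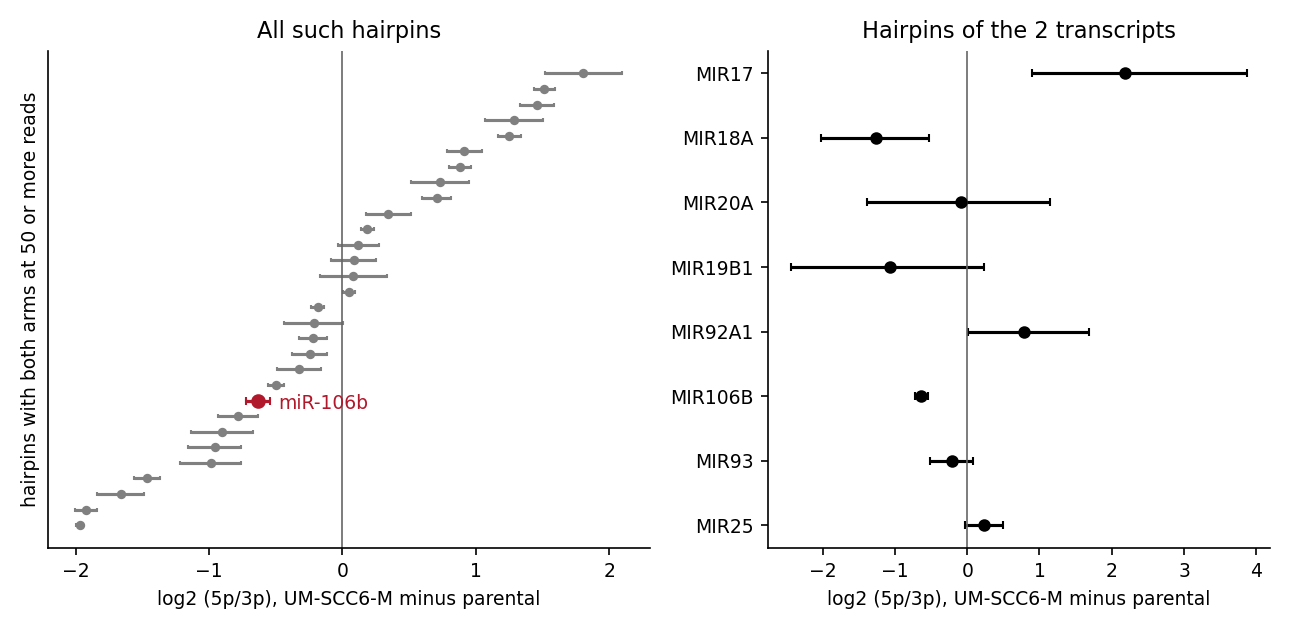
Left, the difference between libraries in the log2 ratio of 5p to 3p reads for the 30 hairpins with both arms at 50 or more normalized reads, sorted, with miR-106b in red; right, the same for the 8 hairpins of both transcripts whose arms both had reads, with exact 95% conditional intervals. MIR106B lies at -0.63, within the spread of the 30 hairpins, and the widest interval is that of MIR17.

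Read along their transcripts, the members did not share 1 ratio. On MIR17HG the order from the 5′ end was miR-17-5p at 0.37, miR-18a-5p at -0.60, miR-19a-3p at -0.26, miR-20a-5p at 0.09 and miR-19b-3p at 0.55. The last hairpin gave miR-92a-3p, which has the seed of another family and the highest ratio among the abundant products. It had 8149 against 4671 normalized reads, for a ratio of 0.80 (0.78 to 0.82). Its minor arm miR-92a-1-5p, which only this locus encodes, had 58 against 17 reads. The first and last of the 12 products begin 743 bases apart, and the 6 at 10 or more normalized reads spanned 1.41 on the log2 scale. On the MCM7 transcript miR-106b-5p stood at -0.55, miR-106b-3p at 0.08 and miR-93-5p at -0.01, with miR-25-3p of the miR-92a seed family at 0.13 (6138 against 5627 normalized reads). The 6 products of that transcript at 10 or more normalized reads spanned 0.90, up to miR-25-5p at 0.35.

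Unequal ratios within a cluster of neighbouring hairpins were usual in these libraries. Of 19 hairpin clusters with at least 3 products at 10 or more normalized reads, the range of log2 ratios ran from 0.26 to 3.30. The MIR17HG transcript ranked 10 and the MCM7 cluster ranked 16 from the widest. These ranks are rough, because clusters held from 3 to 9 such products, both arms included. Some products can also come from more than 1 cluster. Summed, the 6 members of MIR17HG had 4396 normalized reads in UM-SCC6-M against 3871 in the parental library, a log2 ratio of 0.18 (0.16 to 0.21). The 3 members from MCM7 had 4008 against 4068, a ratio of -0.02 (-0.04 to 0.00). The difference between both sums was 0.20 (0.17 to 0.24), which does not depend on the scaling.

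**Figure D4:**
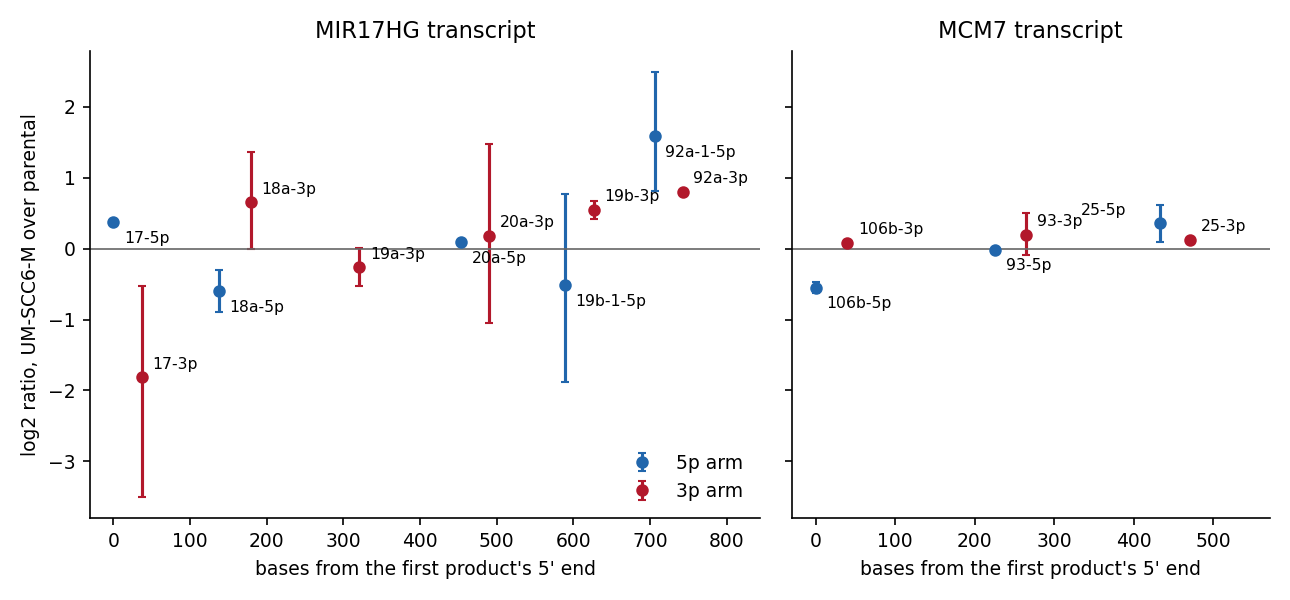
Log2 ratio of UM-SCC6-M over parental against the distance in bases from the first product's 5′ end on each transcript, for every product with reads known in both libraries (blue 5p arms, red 3p arms, bars 95% counting intervals). Products of MIR17HG run from -1.81 for miR-17-3p to 1.59 for miR-92a-1-5p, and both of these rest on 58 reads or fewer in each library.

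Among the other products of the same loci, miR-92a-3p and miR-25-3p supplied most of the reads. Of 19 such names from MIR17HG, MCM7 and the X chromosome cluster, 9 had no entry among the entries analysed here, 1 was listed at 0 in both libraries and 9 had reads. The 4 at 10 or more normalized reads all had ratios above 0. They were miR-92a-3p, miR-25-3p, miR-25-5p at 0.35 (0.10 to 0.62) and miR-93-3p at 0.20 (-0.09 to 0.49), and include both arms of MIR25. None was 2-fold apart, against 22.8% of the 289 entries at that floor. The share of those entries above 0 is not given here, and their median was -0.07. Of the products that only the X chromosome cluster encodes, miR-106a-5p alone had reads, 15 and 10, and these could belong to miR-17-5p. miR-363-3p was listed at 0 in both libraries. Reads of the products that this cluster shares with MIR17HG cannot be assigned to either locus.

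Outside these loci, the miRNAs whose ratio lay nearest to that of miR-20a-5p (0.09) were miR-182-5p, miR-30b-5p (both 0.09) and miR-340-5p (0.11). Likeness here is the difference of 1 ratio over 2 libraries, at most 0.02 for these 3.

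In the authors' deposited table none of the 9 members carries the mark for selected miRNAs, which 5.15% of the 854 entries with a deposited comparison carry. A count of 0 in 9 is close to that share. Its q-values compare these 2 libraries, not the 2 conditions, and did not follow the size of its log2 fold changes. miR-93-5p had a deposited fold change of -0.014405 with a q-value of 5.36e-07, and miR-106b-5p one of -0.54984 with 0.048206. miR-18a-5p, with -0.60348, had a q-value of 0.99088. When scaled to total reads the log2 ratio of miR-93-5p was 0.23, that of miR-106b-5p -0.31 and that of miR-18a-5p -0.36. miR-18a-5p had only 19.9 normalized reads in UM-SCC6-M and 30.3 in the parental library. Why the q-values did not follow the fold changes was not tested.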

How the data were processed

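The authors deposited 1 table with 1 column per library, and scripts of this work start from it. Bowtie, an aligner, is named without a version in the submitters' processing notes, and the database release, genome build, counting and scaling are not stated in the labels or the table. The 2 value columns hold a read signal scaled by the authors, and the listed values proved to be whole multiples of a step per column, within 7.2e-05 reads. Dividing by the step recovered the reads. Where 1 library was listed at 0, its reads came from the deposited log2 fold change, whole within 0.00023 reads, so reads in both libraries were known for 555 entries. The p-values and q-values are the authors' own comparison per the file headers, and were only copied.

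Log2 ratios use 0.5 reads added to each library. Intervals are Clopper-Pearson for ratios and shares, exact Poisson for levels and Fisher's noncentral hypergeometric for differences of ratios. A call needs 2-fold and 50 normalized reads in the higher library. The members and lists were chosen with earlier results of these data known. Named were all members, other products of the 3 loci at 10 or more normalized reads, and the 3 nearest ratios to the most abundant member. Products under that floor, the cluster ranges and the arm ranks were added after values were seen. Clusters are RefSeq hairpins on 1 strand with gaps of at most 10 kb. Alternatives were 4 other scalings, other floors and thresholds, 5 reads added, and deposited fold changes. The script was tested on simulated data. Python 3.11.15, numpy 2.4.6, pandas 2.3.3, scipy 1.17.1 and matplotlib 3.10.9 were used.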

Additional observations from a re-analysis of the deposited data

How the results depend on the processing

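Each group was 1 library, so replicates could not be left out. Every scaling shifts all log2 ratios by 1 amount, from -0.02 for the trimmed mean of M-values to 0.24 for total reads. No paired analysis was possible because each group has 1 library. The count of members 2-fold apart was 0 under the other scalings and at floors of 10 and 200. With no floor it was 1 (miR-17-3p). Thresholds of 1.5-fold and 4-fold also gave 0 members. At 1.5-fold this 0 was narrow, because miR-106b-5p and miR-19b-3p were each 1.46-fold apart. No share over all miRNAs is given here for these thresholds, the floor of 200 or the other scalings. The members' median of 0.03 was 0.28 scaled to total reads, 0.078 by the median of ratios, 0.13 with totals that leave out the 10 most abundant miRNAs, 0.087 at a floor of 50 and 0.083 at a floor of 200. It turned to -0.014 with no floor, where miR-17-3p enters, so it gives no direction. The miR-17 family's sum of 0.08 was 0.32 scaled to total reads, 0.059 by the trimmed mean, 0.12 by the median of ratios and 0.18 without the 10 most abundant. The miR-19 sum of 0.40 was 0.64 scaled to total reads. The difference between MIR17HG and MCM7 members of 0.20 was 0.26 without miR-17-3p and miR-106b-3p. Of the members' own ratios 8 of 9 kept their sign under the 5 alternatives, and miR-93-5p ran from -0.03 to 0.23.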
